A study of Mus musculus with 15 samples.

Results

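The calcium/calmodulin-dependent protein kinases (CaM kinases) were described in RNA-seq of mouse prefrontal forebrain cortex. The members were the 10 rows of the deposited tables whose gene name was Camk2a, Camk2b, Camk2d, Camk2g, Camk4, Camk1, Camk1d, Camk1g, Camkk1 or Camkk2, out of 21878 rows, and all 10 passed the filter on low values. The 15 libraries fell into 4 groups: 3 from presenilin double knockout mice (DKO) on nicotine, 4 from DKO mice on water, 4 from wild-type C57BL6/J mice (WT) on nicotine and 4 from WT mice on water. From an age of 8 months the mice drank nicotine at 100 µg/ml or plain water for 3 months, and behavior was tested before the cortex was taken. The labels do not name the driver of the deletion or the sex of the mice. As background, the published forebrain-restricted presenilin double knockout line carries a Cre driven by a Camk2a promoter fragment in excitatory neurons. Whether these mice belong to that line is not stated in the labels.

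CaM kinases are serine/threonine kinases that calcium-bound calmodulin switches on. The CaMKII subunits, encoded by Camk2a, Camk2b, Camk2g and Camk2d, assemble into large holoenzymes that phosphorylate themselves and stay active after calcium falls, and in cortex the alpha subunit is a major protein of the postsynaptic density that is needed for long-term potentiation. CaMKK1 and CaMKK2 phosphorylate and activate the CaMKI enzymes (Camk1, Camk1d, Camk1g) and the nuclear kinase CaMKIV (Camk4), which phosphorylates the transcription factor CREB, and CaMKK2 also activates the AMP-activated protein kinase.

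Start regions of 3 members are shown because they stand for the pattern that the values follow: Camkk2 and Camk1g were lower in DKO cortex, and Camkk1, the paralog of Camkk2, was not called. Each window runs from 250 bases before to 50 bases after a start listed by RefSeq on GRCm38.p6, 5′ to 3′ on the gene's strand. The start used need not be the outer end of the gene, and for all 3 members it lies inside the annotated gene span given with the gene's values. Capitals mark matches on either strand to the letters TGACG, the core of the cyclic AMP response element, or GGGCGG, the GC box. The windows lie at chr5:122779361-122779660 on the minus strand (Camkk2), chr11:73018738-73019037 on the plus strand (Camkk1) and chr1:193370233-193370532 on the minus strand (Camk1g).
Camkk2: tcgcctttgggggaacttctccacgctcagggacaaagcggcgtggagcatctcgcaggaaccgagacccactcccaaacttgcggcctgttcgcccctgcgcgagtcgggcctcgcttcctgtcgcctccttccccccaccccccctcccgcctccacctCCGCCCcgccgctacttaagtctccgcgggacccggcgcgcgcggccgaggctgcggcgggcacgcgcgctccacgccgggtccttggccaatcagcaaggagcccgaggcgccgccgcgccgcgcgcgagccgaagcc
Camkk1: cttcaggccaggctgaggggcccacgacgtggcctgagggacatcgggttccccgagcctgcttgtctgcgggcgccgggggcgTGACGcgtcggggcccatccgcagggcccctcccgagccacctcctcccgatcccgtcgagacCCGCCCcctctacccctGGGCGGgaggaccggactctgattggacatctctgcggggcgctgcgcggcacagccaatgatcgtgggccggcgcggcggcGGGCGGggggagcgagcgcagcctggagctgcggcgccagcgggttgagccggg
Camk1g: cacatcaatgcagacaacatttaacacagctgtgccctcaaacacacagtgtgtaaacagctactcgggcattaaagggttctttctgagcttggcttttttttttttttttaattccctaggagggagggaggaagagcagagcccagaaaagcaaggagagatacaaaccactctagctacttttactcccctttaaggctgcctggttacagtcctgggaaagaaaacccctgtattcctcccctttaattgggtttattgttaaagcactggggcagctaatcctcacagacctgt
The Camkk2 window held 73.3% G and C and 1 GC box at position -89 from the start. The Camkk1 window held 75.3% G and C, 1 TGACG core at -166 and GC boxes at -103, -86 and -4. The Camk1g window was A- and T-rich, with 44.7% G and C, and held neither motif. RefSeq windows matched 7 of the 10 members, 8 windows in all. The GC box stood in 6 of these 8 windows and in 35.7% of the 32851 windows of all genes, TGACG in 2 of 8 and in 20.8% of all windows, and the full palindrome TGACGTCA in 0 of 8 and in 1.79% of all windows. These are matches of letters only.

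Total reads in genes, recovered from the steps of the deposited FPKM values (fragments per kilobase of gene, scaled to library size), were 16334904 to 19469215 per library. The members rested on 451 reads (Camk1g, the lowest library) to 84636 reads (Camk2a, the highest). Psen2, a targeted gene, stood at 1.57 ± 0.199 FPKM in DKO nicotine and 1.51 ± 0.179 in DKO water (SD, n = 3 and 4), against 6.48 ± 0.571 in WT nicotine and 6.43 ± 0.770 in WT water (SD, n = 4 each), with no overlap between the genotypes. Libraries are numbered within a group, and the labels do not say whether a number is a mouse, so the p-values reflect spread among libraries, which may be technical. Y-linked genes divided the WT nicotine from the WT water libraries, and only the DKO nicotine libraries were mixed. Their summed level was above 1 FPKM in 2 of 3 DKO nicotine libraries, 4 of 4 DKO water libraries, 0 of 4 WT nicotine libraries and 4 of 4 WT water libraries. Values of DKO nicotine replicate 2, the DKO library without Y-linked expression, are therefore given beside the results that touch it.

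Levels per length set the order of the family. In DKO cortex on water the order was Camk2a (517.3 FPKM), Camk2b (174.9), Camk2g (86.4), Camk1 (54.8), Camkk1 (35.1), Camkk2 (25.9), Camk1d (22.7), Camk4 (15.6), Camk1g (11.9) and Camk2d (10.5). DKO cortex on nicotine had the same order. The lowest pair, Camk1g and Camk2d, overlapped between libraries in both DKO groups, Camkk2 overlapped Camk1d in DKO nicotine, and the other neighbours did not overlap. In WT cortex on water the order was Camk2a (725.1 FPKM), Camk2b (181.2), Camk2g (100.4), Camk1 (49.3), Camkk2 (44.1), Camkk1 (35.9), Camk4 (25.9), Camk1d (24.0), Camk1g (16.2) and Camk2d (9.94), and WT nicotine kept it. Among WT neighbours only Camk4 and Camk1d on water overlapped. Camkk2 thus stood below Camkk1, and Camk4 below Camk1d, in both DKO groups, and above them in both WT groups.

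**Figure D1:**
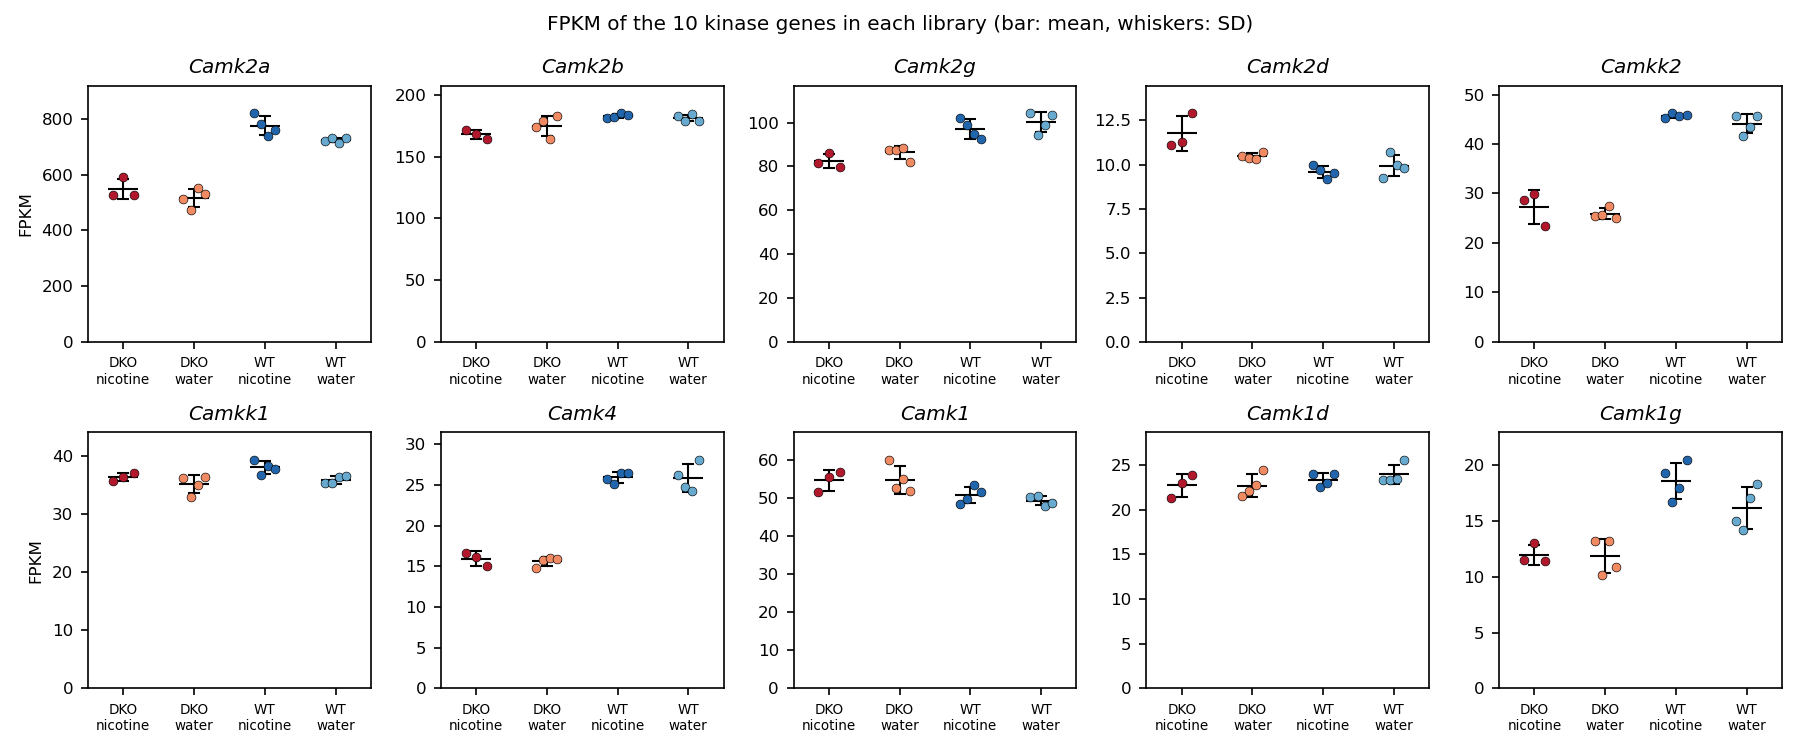
FPKM (y axis, from 0) of each CaM kinase gene in each of the 15 libraries, by group (x axis), with points for libraries, a bar for the mean and whiskers for the SD. Camkk2, Camk4, Camk2a, Camk1g and Camk2g sit lower in every DKO library than in any WT library given the same drink, with Camkk2 at 23.4 to 29.8 FPKM in DKO and 41.7 to 46.2 in WT.

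The comparison of DKO with WT mice on water asks what the knockout changed without nicotine. Of the 10 members, 5 fell (Camkk2, Camk4, Camk2a, Camk1g and Camk2g), 1 rose (Camk1, a call lost after median-of-ratios rescaling) and 4 were not called, where calls were made with limma over 12728 genes at an adjusted p below 0.05 (Benjamini-Hochberg). Over all genes tested, 12.4% were called lower and 25.5% higher in this comparison. The fitted DKO level of log2(FPKM + 1), turned back to a fold, was 0.596 times the WT level for Camkk2, 0.62 for Camk4, 0.713 for Camk2a, 0.748 for Camk1g and 0.862 for Camk2g. Among the 12728 fold changes, Camkk2 held place 48 from the lowest, Camk4 place 61, Camk2a place 163, Camk1g place 256 and Camk2g place 936. The same 5 genes fell on nicotine, together with Camk2b, and Camk2d rose, so that 6 members fell, 1 rose and 3 were not called. On nicotine 11.0% of all genes were called lower and 24.6% higher. Without overlap between the libraries of the groups, 5 members were lower and 1 higher in DKO on water, against 12.5% and 24.0% of all genes, and 6 were lower and 1 higher on nicotine, against 11.8% and 25.8%. In bulk tissue, fewer cells of a type and less RNA per cell cannot be told apart.

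**Figure D2:**
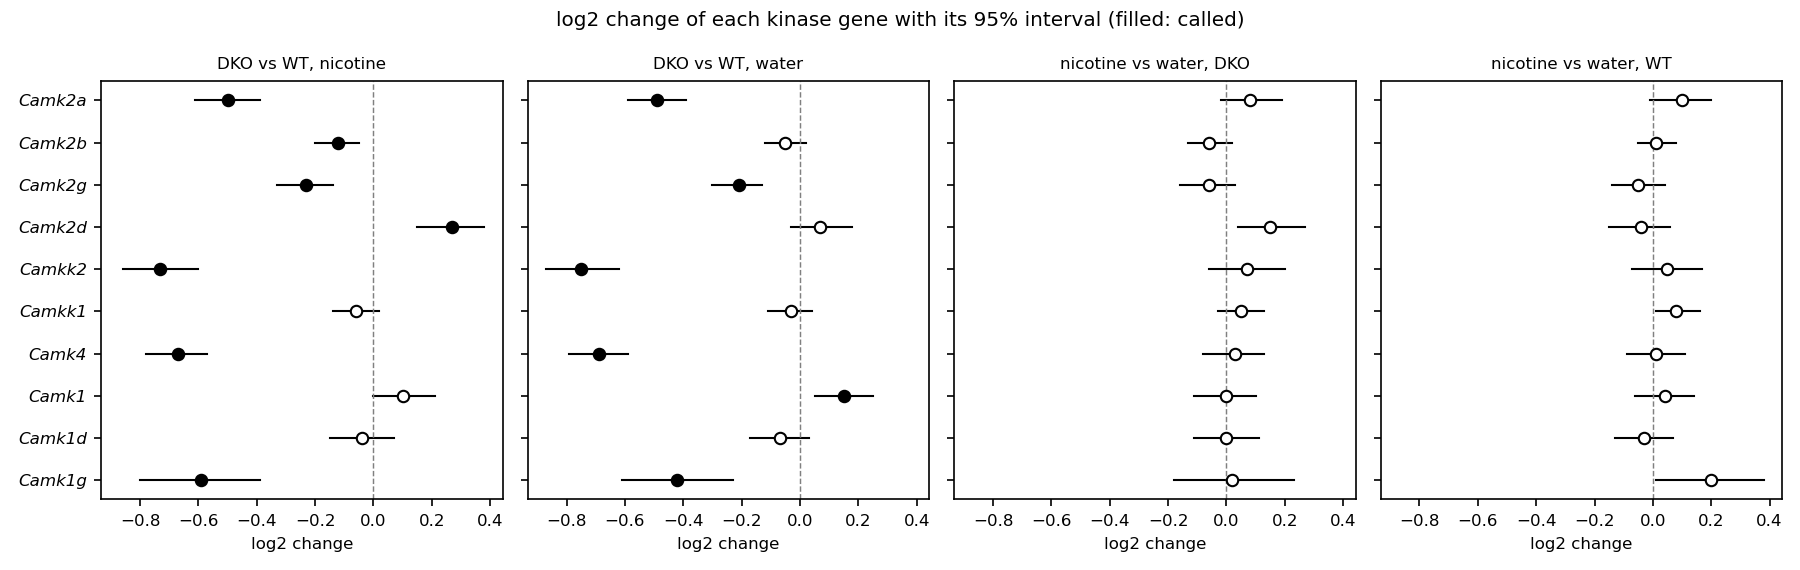
Log2 change of each CaM kinase gene (x axis) with its 95% interval in 4 comparisons, where filled points are called and open points are not. Camkk2, Camk4, Camk2a, Camk1g and Camk2g lie below 0 in both comparisons of DKO with WT, and no member was called in either comparison of nicotine with water.

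The upstream kinases differed from each other. Camkk2 (chromosome 5, 122718380 to 122779522, GRCm38.p6) stood at 25.5, 25.6, 27.5 and 25 FPKM in DKO on water, against 45.6, 41.7, 43.5 and 45.7 in WT on water. On nicotine it stood at 28.6, 29.8 and 23.4 FPKM in DKO, against 45.2, 46.2, 45.7 and 45.9 in WT. Every DKO library lay well below every WT library, and the WT nicotine libraries lay at 45.2 to 46.2 FPKM. The log2 change of Camkk2 was -0.75 on water (SE 0.06, limma adjusted p = 3.45e-08) and -0.73 on nicotine (SE 0.06, limma adjusted p = 1.41e-07). Camkk1 (chromosome 11, 73016043 to 73042073) stood at 36.2, 33.0, 34.9 and 36.3 FPKM in DKO on water, against 35.3, 35.3, 36.4 and 36.6 in WT on water. On nicotine Camkk1 stood at 35.6, 36.4 and 37.1 FPKM in DKO, against 39.3, 36.7, 38.3 and 37.8 in WT. The groups of Camkk1 overlapped in both arms. Its log2 change was -0.03 on water (95% interval -0.11 to 0.04, limma adjusted p = 0.508) and -0.06 on nicotine (95% interval -0.14 to 0.02, limma adjusted p = 0.224). Rescaling the libraries by median-of-ratios factors moved the nicotine value of Camkk1 to -0.14 (limma adjusted p = 0.0123), which is a call. The ratio of Camkk2 to Camkk1 FPKM within a library does not depend on scaling. It was 0.631 to 0.820 in DKO nicotine and 0.689 to 0.788 in DKO water, against 1.15 to 1.26 in WT nicotine and 1.18 to 1.29 in WT water, so Camkk2 was the lower of the pair in every DKO library and the higher in every WT library. Camkk2 overlaps P2rx4 in the RefSeq annotation, and no source used here says whether counting used strand, so reads of overlapping genes cannot be told apart. Of the 10 members, 7 overlap another annotated gene.

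Camk4 encodes the nuclear kinase that CaMKKs activate (chromosome 18, 32934941 to 33195767). It stood at 14.8, 15.8, 16.0 and 15.9 FPKM in DKO on water, against 26.3, 24.8, 24.3 and 28.1 in WT on water. Its nicotine values were 16.7, 16.2 and 15 FPKM in DKO, against 25.8, 25.1, 26.5 and 26.5 in WT. No DKO library reached 17 FPKM and no WT library was below 24. Camk4 had a log2 change of -0.69 on water (SE 0.05, limma adjusted p = 8.34e-09) and -0.67 on nicotine (SE 0.05, limma adjusted p = 3.67e-08).

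The CaMKI genes did not move together. Camk1g, the neuronal membrane-anchored CaMKI gamma (chromosome 1, 193346346 to 193370355), stood at 13.2, 10.2, 13.2 and 10.9 FPKM in DKO on water, against 15, 14.2, 17.1 and 18.3 in WT on water. With nicotine, Camk1g stood at 11.5, 13.0 and 11.4 FPKM in DKO, against 19.3, 16.7, 18 and 20.5 in WT. The groups did not overlap in either arm, although the gap on water was small beside the spread. The log2 change of Camk1g was -0.42 on water (SE 0.09, limma adjusted p = 0.00142) and -0.59 on nicotine (SE 0.10, limma adjusted p = 0.00016). Camk1, the most abundant CaMKI gene (chromosome 6, 113334124 to 113343922), stood at 60.0, 52.5, 54.9 and 51.9 FPKM in DKO on water, against 50.2, 50.5, 47.9 and 48.6 in WT on water. Its groups did not overlap on water, and the log2 change was 0.15 (SE 0.05, limma adjusted p = 0.0186). That call was lost without DKO water replicate 1 (log2 change 0.10, limma adjusted p = 0.0693) or WT water replicate 3 (0.13, 0.0542), and after rescaling (0.08, 0.167). On nicotine Camk1 stood at 51.6, 55.4 and 56.9 FPKM in DKO, against 48.3, 49.8, 53.3 and 51.7 in WT. These groups overlapped, and the log2 change was 0.10 (95% interval -0.00 to 0.21, limma adjusted p = 0.118). Camk1 overlaps Ogg1, a DNA repair gene, in the annotation. Camk1d, CaMKI delta (chromosome 2, 5293457 to 5714860), stood at 21.3 to 24.5 FPKM over the 7 DKO libraries and 22.6 to 25.6 over the 8 WT libraries. Its log2 change was -0.07 on water (95% interval -0.17 to 0.03, limma adjusted p = 0.238), and -0.14 after rescaling (limma adjusted p = 0.0394). On nicotine it was -0.04 (95% interval -0.15 to 0.07, limma adjusted p = 0.576). The summed FPKM of the 3 CaMKI genes was 89.4 ± 4.27 in DKO nicotine and 89.4 ± 4.33 in DKO water (SD, n = 3 and 4), against 92.8 ± 3.08 in WT nicotine and 89.4 ± 2.07 in WT water (SD, n = 4 each).

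Within CaMKII, the alpha subunit gene had the largest difference in FPKM. Camk2a (chromosome 18, 60925307 to 60988152) stood at 514.4, 472.9, 551.1 and 530.9 FPKM in DKO on water, against 722.3, 732.6, 714.5 and 731.1 in WT on water. On nicotine it stood at 526.8, 591.2 and 528.1 FPKM in DKO, against 820.2, 781.0, 740.5 and 761.1 in WT. All DKO libraries were below all WT libraries, and the WT water libraries lay closest together. The log2 change of Camk2a was -0.49 on water (SE 0.05, limma adjusted p = 6.64e-07) and -0.50 on nicotine (SE 0.05, limma adjusted p = 1.5e-06). Camk2g, the gamma subunit, whose product shuttles calmodulin to the nucleus in cultured neurons (chromosome 14, 20734873 to 20794157), stood at 87.7, 87.4, 88.4 and 82.0 FPKM in DKO on water, against 104.2, 94.5, 99.1 and 103.6 in WT on water. Its nicotine values were 81.7, 86.2 and 79.8 FPKM in DKO, against 102.3, 99.0, 94.6 and 92.5 in WT. The groups did not overlap in either arm. Camk2g had a log2 change of -0.21 on water (SE 0.04, limma adjusted p = 0.000698) and -0.23 on nicotine (SE 0.05, limma adjusted p = 0.000793).

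Camk2b, the beta subunit, which binds actin in dendritic spines (chromosome 11, 5969629 to 6066357), stood at 174.3, 178.4, 164.1 and 182.8 FPKM in DKO on water, against 182.4, 179.0, 184.2 and 179.1 in WT on water. On nicotine it stood at 171.4, 168.6 and 164.2 FPKM in DKO, against 181.1, 182.0, 184.9 and 183.9 in WT. The groups overlapped on water and did not on nicotine. Camk2b had a log2 change of -0.05 on water (95% interval -0.12 to 0.02, limma adjusted p = 0.232) and -0.12 on nicotine (SE 0.04, limma adjusted p = 0.0127). After rescaling the water value was -0.12 and was called (limma adjusted p = 0.00942). Without DKO nicotine replicate 3 the nicotine value was -0.11 and was not called (limma adjusted p = 0.0627). Camk2d, the delta subunit and the least abundant of the 4 (chromosome 3, 126595487 to 126846326), stood at 10.5, 10.4, 10.3 and 10.7 FPKM in DKO on water, against 9.26, 10.7, 9.97 and 9.83 in WT on water. On nicotine it stood at 11.1, 11.3 and 12.9 FPKM in DKO, against 10, 9.68, 9.21 and 9.54 in WT. The groups overlapped on water, and on nicotine every DKO library was above every WT library. The log2 change of Camk2d was 0.07 on water (95% interval -0.03 to 0.18, limma adjusted p = 0.274) and 0.27 on nicotine (SE 0.05, limma adjusted p = 0.00111).

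The makeup of the CaMKII family is given as shares of its summed FPKM within a library, which scaling does not touch. The sum was 811.2 ± 40.2 FPKM in DKO nicotine and 789.1 ± 29.0 in DKO water (SD, n = 3 and 4), against 1065 ± 36.5 in WT nicotine and 1017 ± 6.55 in WT water (SD, n = 4 each). Camk2a made up 67.6% ± 1.21 of the sum in DKO nicotine and 65.5% ± 1.88 in DKO water (SD, n = 3 and 4), against 72.8% ± 0.701 in WT nicotine and 71.3% ± 0.538 in WT water (SD, n = 4 each). The DKO shares reached 69.0% at most and the WT shares were 70.9% or more, so the genotypes did not overlap. The ratio of Camk2a to Camk2b was 3.07 to 3.51 in DKO nicotine and 2.65 to 3.36 in DKO water, against 4.0 to 4.53 in WT nicotine and 3.88 to 4.09 in WT water. Camk2b took 20.8% in DKO nicotine and 22.2% in DKO water, against 17.2% in WT nicotine and 17.8% in WT water. Camk2d took 1.46% in DKO nicotine and 1.33% in DKO water, against 0.902% in WT nicotine and 0.978% in WT water. Shares of 1 sum are tied to each other, and no test was made of them.

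**Figure D3:**
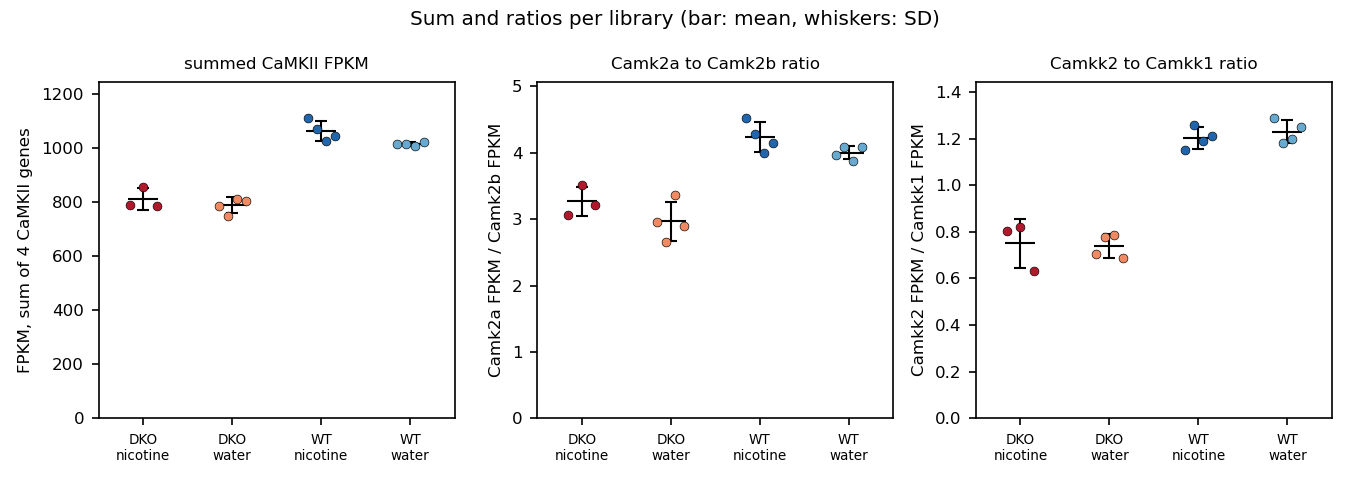
Summed FPKM of the 4 CaMKII genes, ratio of Camk2a to Camk2b FPKM and ratio of Camkk2 to Camkk1 FPKM (y axes, from 0) in each library by group (x axis), with a bar for the mean and whiskers for the SD. All 3 measures were lower in every DKO library than in every WT library, with the Camkk2 to Camkk1 ratio at 0.631 to 0.820 in DKO and 1.15 to 1.29 in WT.

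The comparison of nicotine with water within a genotype asks whether the drug moved these genes. None of the 10 members was called in DKO mice, in WT mice or in the difference between the genotypes, where limma called 0.157%, 0.173% and 0.0157% of all genes. An unadjusted p under 0.05 was reached by 1 member in DKO, 2 in WT and 1 in the difference, and limma voom on the recovered reads also called 0 in each, with 1, 3 and 1 under an unadjusted 0.05. In DKO mice the member with the smallest p was Camk2d, with a log2 change of 0.15 (95% interval 0.04 to 0.27, unadjusted p = 0.0134 in limma, adjusted p = 0.244). Its DKO nicotine libraries all lay above its DKO water libraries, the nearest at 11.1 FPKM against 10.7, an upward lack of overlap that 6.91% of all genes showed. DKO nicotine replicate 2, without Y-linked expression, was at 11.3 FPKM. The change of Camk2d on nicotine was larger in DKO than in WT by 0.19 on the log2 scale (95% interval 0.04 to 0.35, unadjusted p = 0.0181 in limma, adjusted p = 0.657). In WT mice Camkk1 and Camk1g had log2 changes of 0.08 (95% interval 0.01 to 0.16, unadjusted p = 0.0379 in limma) and 0.20 (95% interval 0.01 to 0.38, unadjusted p = 0.0422 in limma), and the smallest adjusted p of any member was 0.538. Camk2a was higher in every WT nicotine library than in every WT water library, with a log2 change of 0.10 (95% interval -0.01 to 0.20). Such a lack of overlap upward was met by 3.14% of all genes, and Camkk1 was the other member to show it. No WT nicotine library and every WT water library expressed Y-linked genes, so nicotine and that difference cannot be told apart in WT mice. The difference between the genotypes in the change on nicotine includes this WT comparison, so the same limit holds for it. In DKO mice 2 of 3 nicotine and 4 of 4 water libraries expressed Y-linked genes. Nicotine and Y-linked expression cannot be fully told apart there.

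The genotype results were set against the library that matches WT nicotine in lacking Y-linked expression. DKO nicotine replicate 2 stood at 29.8 FPKM for Camkk2, 16.2 for Camk4, 591.2 for Camk2a, 13.0 for Camk1g and 86.2 for Camk2g, each below all 4 WT nicotine libraries. It stood at 168.6 FPKM for Camk2b, below all 4, and at 11.3 for Camk2d, above all 4, and these 2 genes were called in the nicotine arm but not on water as deposited. As replicate 2 is the only DKO library of this kind, these values carry no estimate of spread. On nicotine 2 of 3 DKO and 0 of 4 WT libraries expressed Y-linked genes, so genotype and that difference cannot be fully told apart there. The water comparison had Y-linked expression in all 8 libraries.

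The lists of genes around the kinases are read beside the shares over all genes, 12.4% called lower and 25.5% higher on water and 11.0% and 24.6% on nicotine, and beside the median log2 change of all genes, 0.048 on water and 0.061 on nicotine. Of 7 genes of calmodulin and proteins that bind it, 4 fell and 1 rose in DKO on water (median log2 change -0.20), and 5 fell and 0 rose on nicotine (median -0.30). Calm2 and Calm3 encode the same calmodulin protein. Calm2 stood at 1118 ± 38 FPKM in DKO on water, against 1385 ± 21.4 in WT on water (SD, n = 4 each), or -0.31 on the log2 scale (SE 0.04, limma adjusted p = 3.86e-06). Calm3 fell by 0.15 on the log2 scale. Nrgn, neurogranin, which holds calmodulin in dendrites, stood at 809.4 ± 47.7 FPKM in DKO on water, against 1039 ± 43.3 in WT on water (SD, n = 4 each), with a log2 change of -0.36. The binding proteins did not move as a block: Pcp4l1 rose on water (0.49, limma adjusted p = 0.00924), and Pcp4 (-0.20, limma adjusted p = 0.144) and Gap43 (-0.04, limma adjusted p = 0.692) were not called. On nicotine Pcp4 fell (-0.46) and Pcp4l1 and Gap43 were not called.

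Among 10 inhibitors, anchors and substrates of CaMKII, 7 fell and 1 rose in each arm, with median log2 changes of -0.19 on water and -0.21 on nicotine. The 7 were not all the same genes: Lrrc7 was called on water only and Camk2n2 on nicotine only. Gria1 was the gene that rose. After rescaling it was not called on water (0.12, limma adjusted p = 0.0599) or on nicotine (0.10, limma adjusted p = 0.142). Camk2n1, which encodes an inhibitor protein of CaMKII, stood at 365.0 ± 8.15 FPKM in DKO nicotine and 335.3 ± 9.72 in DKO water (SD, n = 3 and 4), against 544.5 ± 42.4 in WT nicotine and 514.0 ± 21.5 in WT water (SD, n = 4 each). Its log2 change was -0.61 on water (SE 0.05, limma adjusted p = 3.3e-08). The postsynaptic scaffolds Shank3 (-0.32) and Dlg4 (-0.18) and the synaptic scaffold Cask (-0.23) fell on water too.

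Upstream, 4 of 7 genes of calcium channels and NMDA receptors fell and 0 rose in DKO on water (median -0.19), and 2 fell and 2 rose on nicotine (median -0.18). Grin1, the obligatory NMDA receptor subunit, had a log2 change of -0.22 on water, Grin2a one of -0.32, and the release channels Itpr1 and Ryr2 had -0.19 and -0.23. On nicotine Ryr2 (0.03) and Grin2a (-0.33, limma adjusted p = 0.0581) were not called, and the L-type calcium channel genes Cacna1d (0.36) and Cacna1c (0.15, not called after rescaling at 0.08) rose. Another list held 12 genes of phosphatases that act on CaM kinases or their substrates, and of regulators of these phosphatases. Of these, 3 fell and 2 rose on water, and 3 fell and 1 rose on nicotine. The rises were fewer than the share of all genes called higher. The 3 that fell on water were subunits of calcineurin, the calcium/calmodulin-dependent phosphatase: Ppp3r1 (-0.50), Ppp3ca (-0.38) and Ppp3cb (-0.21). Ppp3r1 stood at 290.2 ± 6.89 FPKM in DKO on water, against 411.6 ± 9.84 in WT on water (SD, n = 4 each; limma adjusted p = 1.56e-08). Ppp1r1b, the phosphatase inhibitor DARPP-32 and also a marker of striatum, rose by 0.76 on water and was not called on nicotine (0.30, limma adjusted p = 0.139).

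Downstream lists held genes called in both directions. As deposited, most of their genes were not called on water, where 12.4% of all genes were called lower and 25.5% higher. Of 14 genes for CREB, its coactivators, class IIa deacetylases and MEF2 factors, 3 fell and 2 rose on water (median 0.03), and 4 fell and 4 rose on nicotine (median 0.02). After rescaling, 6 of the 14 fell and 2 rose on water, beside 19.8% and 18.2% of all genes. On nicotine 5 fell and 2 rose after rescaling, beside 19.0% and 15.7%. Mef2c (-0.34), the CREB coactivator Crtc1 (-0.29) and Hdac9 (-0.45) fell on water, and Crem rose (0.29). Of 8 genes of the AMP-activated kinase and its other upstream kinases, 1 fell and 2 rose on water, and 0 fell and 3 rose on nicotine. After rescaling, 2 of the 8 fell and 1 rose on water, and 1 fell and 0 rose on nicotine. Prkag2, a regulatory gamma subunit, rose by 0.28 and Prkag1 by 0.15, with the Prkag1 call lost after rescaling (0.09, limma adjusted p = 0.194), and the catalytic Prkaa2 fell by 0.15 on the log2 scale. Of the 14 tested of 15 other kinases of the CaMK group, 2 fell and 2 rose on water, and 1 fell and 3 rose on nicotine, close to or below the shares of all genes as deposited. After rescaling, 4 of these 14 fell and 2 rose on water, where 19.8% and 18.2% of all genes did. On nicotine 3 fell and 2 rose after rescaling, where 19.0% and 15.7% did. Phkg1, a catalytic subunit of phosphorylase kinase, stood at 8.99 ± 0.605 FPKM in DKO on water, against 5.15 ± 0.369 in WT on water (SD, n = 4 each), with a log2 change of 0.70. Camkv, a pseudokinase of the family, had a log2 change of -0.18, Mylk one of 0.33 and Dapk2, listed near 1 FPKM, one of -0.38. No gene of these lists was called for nicotine within either genotype or for the difference between genotypes.

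**Figure D4:**
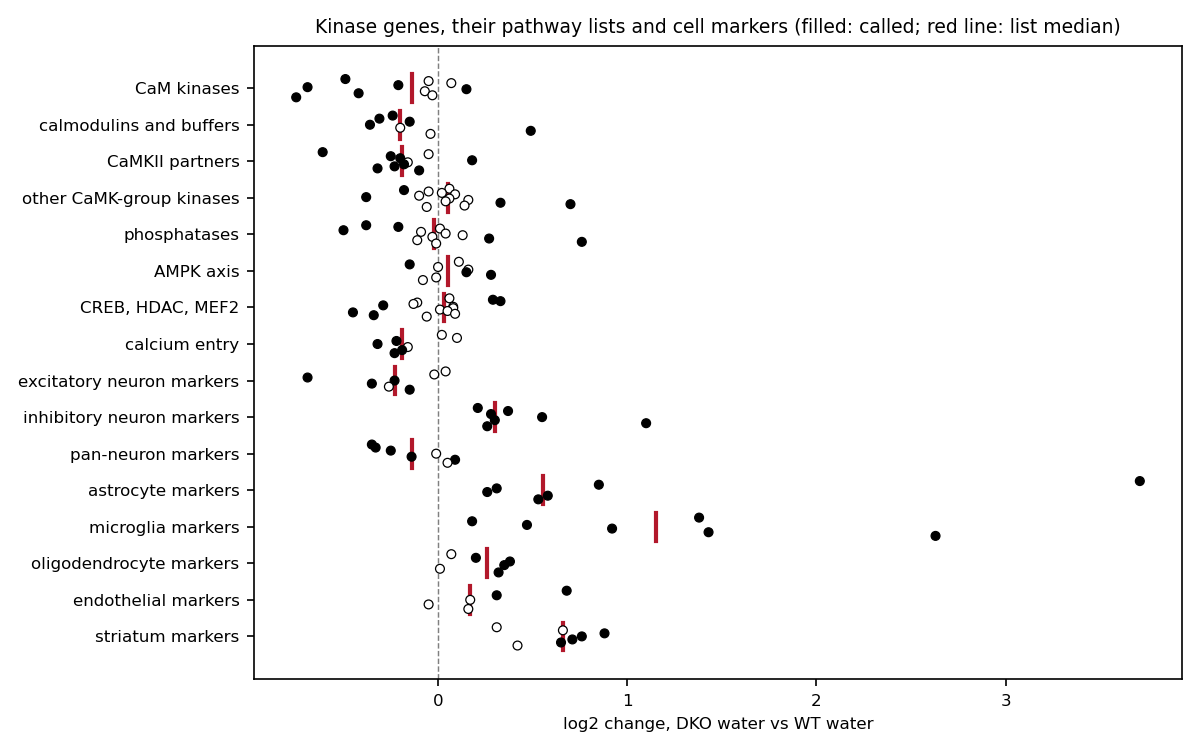
Log2 change of DKO water over WT water (x axis) for each gene of the CaM kinases, their pathway lists and the cell markers (y axis), with filled points for called genes and a red line at each list's median. The CaM kinases (median -0.14), calmodulins (-0.20) and CaMKII partners (-0.19) lie mostly below 0, and astrocyte (0.56) and microglia (1.15) markers lie above 0.

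Markers of several cell types differed between the genotypes. In DKO on water, 4 of 7 excitatory neuron markers fell and 0 rose (median log2 change -0.23), and 4 of 7 markers of all neurons fell and 1 rose (median -0.14). The summed level of the excitatory markers overlapped between the genotypes, at 742.7 to 768.3 FPKM in DKO nicotine and 727.2 to 786.4 in DKO water, against 746.3 to 772.0 in WT nicotine and 760.3 to 799.8 in WT water. Slc17a7, not called in either arm, held most of this sum, at 563.6 FPKM in DKO nicotine and 568.7 in DKO water. It was at 531.2 FPKM in WT nicotine and 552.1 in WT water. The summed level of the markers of all neurons did not overlap. It was 2201 to 2373 FPKM in DKO nicotine and 2218 to 2386 in DKO water, against 2560 to 2701 in WT nicotine and 2574 to 2737 in WT water. Snap25 held the largest part of it. All 7 inhibitory neuron markers rose on water (median 0.30; 6 after median-of-ratios rescaling), with summed levels of 588.9 to 732.3 FPKM in DKO, against 486.5 to 537.8 in WT. On nicotine 4 of the 7 rose (2 after rescaling), and the sums overlapped, at 518.2 to 684.6 FPKM in DKO, against 503.5 to 538.9 in WT. All 6 astrocyte and all 6 microglia markers rose on water (6 and 5 after rescaling). The summed astrocyte level was 662.2 to 736.1 FPKM in DKO nicotine and 676.3 to 773.0 in DKO water, against 313.4 to 348.4 in WT nicotine and 296.5 to 328.2 in WT water. Gfap held most of this difference, at 308.6 FPKM in DKO nicotine and 342.2 in DKO water, against 25.7 in WT nicotine and 25.2 in WT water. The log2 changes of the other astrocyte markers on water were 0.26 (Aldh1l1) to 0.85 (Aqp4), against 3.71 for Gfap. The summed microglia level was 289.6 to 328.5 FPKM in DKO nicotine and 303.2 to 352.5 in DKO water, against 93.0 to 102.9 in WT nicotine and 93.3 to 107.4 in WT water. C1qa held most of this difference, at 188.6 FPKM in DKO nicotine and 203.5 in DKO water, against 33.1 in WT nicotine and 32.1 in WT water. The log2 changes of the other microglia markers on water were 0.18 (P2ry12) to 1.43 (Aif1), against 2.63 for C1qa. On nicotine 4 of the 6 microglia markers rose, and P2ry12 and Tmem119 were not called. Of 6 oligodendrocyte markers 4 rose, of 5 endothelial markers 2 rose and of 7 striatum markers 4 rose on water, beside 25.5% of all genes called higher, and 0 striatum markers were called on nicotine. The summed striatum level was 213.2 to 360.7 FPKM in DKO on water, against 145.0 to 211.9 in WT on water. No marker of any list was at 0 in all libraries of a group. The part that these markers play in the changes of the CaM kinases was not tested.

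The share of higher calls among all calls depended on scaling, at 67.2% on water and 69% on nicotine as deposited, and 48% and 45.3% after median-of-ratios rescaling. On the rescaled values 7 members fell and 0 rose on water, where 19.8% of all genes were called lower and 18.2% higher. On nicotine 7 fell and 1 rose, where 19.0% were called lower and 15.7% higher. Camkk2, Camk4, Camk2a, Camk1g and Camk2g were called lower in both arms on either scale. The water medians of calmodulin and its binders (-0.26), the CaMKII partners (-0.25) and the calcium entry genes (-0.25) stayed below 0 after rescaling, and that of the CREB, deacetylase and MEF2 list changed sign (-0.02).

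Genes with the most similar pattern were found for each member called on water, as the smallest root mean square difference of centred log2(FPKM + 1) over the 15 libraries. Camk4 and Camkk2 were each among the 3 nearest genes of the other, at 0.069. The nearest genes of Camkk2 were Crhr1 (0.065), the receptor for corticotropin-releasing hormone, and Palm2 (0.069). Those of Camk4 were the calcium channel Cacna1i (0.060) and the potassium channel Kcnt2 (0.061). Crhr1 averaged 1.52 FPKM in DKO water against 3.16 in WT water, Palm2 4.53 against 8.74 and Kcnt2 3.42 against 5.94. At such low levels log2(FPKM + 1) understates changes, so a small distance need not mean an equal fold. Camk2a lay nearest to Arhgap32 (0.055), Dgkz (0.056), a diacylglycerol kinase, and Kctd1 (0.063). Dgkz averaged 41.6 FPKM in DKO nicotine and 40.3 in DKO water, against 60.4 in WT nicotine and 56.7 in WT water. Camk2g lay nearest to Enpp2 (0.035), Hspa12a (0.042) and Map7d2 (0.042), and Camk1 lay near Rundc3a (0.046) and Smarce1 (0.048). Camk1g had no neighbour as close, with Synpo (0.095), which encodes synaptopodin, Slc7a3 (0.107) and Hdac9 (0.112) the nearest. All these distances share the same 15 libraries, and they describe likeness of pattern only.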

How the data were processed

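Per the labels' protocols, TRIzol was used to extract RNA and the TruSeq Stranded mRNA LT kit to build the libraries. The authors deposited FPKM values per gene, 1 table per library. Per the submitters' processing notes, GRCm38.p6 was the genome build. The sources used here do not name the aligner, the counter or the strand setting. The FPKM of all tested genes were whole multiples of 1 read within 0.02 reads, which gave 16334904 to 19469215 reads in genes per library. Names turned into dates were restored for 27 genes.

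Values were analysed as log2(FPKM + 1), which understates changes of low genes, for 12728 genes that reached 1 FPKM in 3 or more libraries. The test was limma 3.58.1 in R 4.3.3 with an intensity trend, all 15 libraries in 1 fit, no block, and p-values adjusted by Benjamini-Hochberg separately in each comparison. Scripts were tested on simulated data. Tables and plots used Python 3.11.15, pandas 2.3.3 and matplotlib 3.10.9. Members, lists and tests were chosen with earlier results of these data known. All members are named, up to 4 called genes per pathway list with the smallest p on water, and the 3 genes nearest in pattern to each called member; some genes that this rule names are not reported here. Start windows came from RefSeq. Alternatives were rescaling, other filters, a pseudocount of 0.1, no trend, only the groups compared, a replicate block, limma voom on the recovered reads and leaving out each library. Mitochondrially encoded genes were not analysed here.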

Additional observations from a re-analysis of the deposited data

Results flagged for a closer look

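Among 30 groups of 4 libraries tested, 2 held a library far from the others, where chance gives about 1 in 20. Camk2g in DKO water replicate 4 was at 82.0 FPKM, below the other 3 libraries at 87.4 to 88.4, and without it the log2 change on water was -0.19 (limma adjusted p = 0.00329). Camk1d in WT water replicate 4 was at 25.6 FPKM, above the other 3 at 23.4 to 23.5, and without it the log2 change on water was -0.04 (limma adjusted p = 0.533).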

How the results depend on the processing

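The members called stayed at 6 on water and 7 on nicotine under no filter, a filter at 5 FPKM, a pseudocount of 0.1, no trend, only the groups compared and limma voom. With a replicate block 6 and 7 were called as well, and 0 for nicotine in either genotype or the difference between genotypes. Deviations of libraries with the same number correlated at -0.21 to 0.16, so the numbers were not taken to pair libraries. Leaving out each library gave 5 to 6 members on water and 6 to 7 on nicotine, and 0 elsewhere. The log2 change without each library in turn was -0.77 to -0.73 for Camkk2, -0.72 to -0.65 for Camk4, -0.52 to -0.45 for Camk2a, -0.47 to -0.35 for Camk1g and -0.24 to -0.19 for Camk2g on water. Values near 0 changed sign. On rescaling, Camk1d was at -0.01 for nicotine in DKO and Camkk2 at -0.00 in the difference. Without each library in turn, Camk1d was -0.08 to 0.00 for DKO over WT on nicotine, and Camk4 -0.02 to 0.05 for nicotine in WT. For nicotine in DKO, Camk4 was -0.00 to 0.07, Camk1 -0.03 to 0.04, Camk1d -0.03 to 0.05 and Camk1g -0.04 to 0.07. In the difference, Camk2a was -0.07 to 0.02, Camk2g -0.05 to 0.01, Camk4 -0.02 to 0.06, Camkk2 -0.05 to 0.12 and Camk1d -0.00 to 0.08. The cause was not tested. The Camk2a share of CaMKII differed by -6.55 to -5.03 points on water and -5.86 to -4.68 on nicotine. With 3 or 4 libraries a group, changes as small as those of Camk1 or Camk2b are at the limit of what was called.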

Other observations

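The inhibitor gene Camk2n1 and the kinase it inhibits were set side by side within each library, a ratio that scaling does not touch. Camk2n1 was at 0.451 times the summed CaMKII FPKM in DKO nicotine (0.418 to 0.473) and 0.425 in DKO water (0.418 to 0.432), against 0.511 in WT nicotine (0.482 to 0.564) and 0.506 in WT water (0.485 to 0.527). The ratio was lower in every DKO library than in any WT library, and no test was made of it.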
